A study of Mus musculus with 16 samples.

Results

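Expression of 10 genes of tryptophan use was described in subcapsular sinus macrophages (SSMs) and medullary sinus macrophages (MSMs) sorted from tumor-draining (tdLN) and non-draining (ndLN) lymph nodes. The genes were Kmo, Ido1, Ido2, Kynu, Haao, Afmid, Il4i1, Ahr, Ahrr and Wars, chosen by symbol because they handle tryptophan or kynurenine or answer to their products, and they are 10 of the 55421 genes in the count table. Kmo was itself chosen on the measured values, because its difference between the lymph nodes was unequal in SSMs and MSMs. Its values in those comparisons are therefore given without a test, and members were counted over the 9 others. All 10 genes were among the 21085 genes tested, and 5 of them (Kmo, Kynu, Haao, Ahr and Wars) had a mean normalized count over 100 per lane.

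Male C57B/6 mice received 500000 cells of MOC2, a chemically induced squamous cell carcinoma model, intradermally in the flank, and lymph nodes were taken 2 weeks later. Every mouse carried a tumor, and the ndLN came from the opposite flank of the same animals (inguinal, axillary and brachial nodes), so no group is tumor-free. The tumor cells were implanted near the inguinal node, so the mix of node sites can differ between tdLN and ndLN. Node site and drainage cannot be told apart in comparisons of tdLN with ndLN. Each library was made from about 10000 sorted cells of a pool of 2 mice, with 2 tdLN or 6 ndLN in a pool. All sorted cells were 7AAD- CD45+ CD3- B220- Ly6G- CD11b+ CD169+. SSMs were CD11c- with low side scatter, and MSMs were CD11c+ with high side scatter. There were 4 groups of 2 libraries, one per pool. With n = 2, the spread is that between 2 pools of mice. In these bulk libraries, fewer cells of a type and less RNA per cell cannot be told apart.

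Most tryptophan that is not built into protein is broken down along the kynurenine pathway. IDO1, IDO2 and TDO2 open the tryptophan ring, AFMID releases kynurenine, and KMO, KYNU and HAAO act one after another on the branch that leads to quinolinic acid and NAD, while aminotransferases turn kynurenine into kynurenic acid. The secreted amino acid oxidase IL4I1 opens another route, whose products, like kynurenine and kynurenic acid, can bind the aryl hydrocarbon receptor (AHR), a transcription factor of barrier tissues and myeloid cells. AHR pairs with ARNT on a short DNA element and switches on Cyp1 genes and its own repressor Ahrr. WARS charges tRNA with tryptophan and is a known interferon gamma-induced gene.

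The core of the AHR element, GCGTG, was searched on both strands in the 250 bases before the start that RefSeq gives each gene (GRCm38.p6). Of 32851 such windows, 28.2% held it. Entries existed for 5 of the 10 members (Kmo, Il4i1, Afmid, Ahrr and Haao). Ahrr held 3 matches and Haao 1 match, and the windows of Kmo, Il4i1 and Afmid held none. The windows of Kmo, Il4i1 and Haao lie inside the spans of these genes in GENCODE, and GENCODE exons cover 197 of the 250 bases for Kmo and all 250 for Haao, so these windows need not be promoters. Of the 8 listed AHR target genes with an entry, Cyp1a1, Cyp1b1 and Tiparp held 1 match each, and Cyp1a2, Nqo1, Ugt1a6a, Gsta1 and Lpar6 held none. The windows of Ahrr and of the classical AHR targets Cyp1a1 and Cyp1b1 are printed as examples of a window with the core and with no base in a GENCODE exon, with the core in capitals (read as CACGC where it lies on the other strand). They lie at chr13:74292332-74292581 (minus strand), chr9:57697363-57697612 (plus strand) and chr17:79715062-79715311 (minus strand). A match describes letters and not binding.
Ahrr: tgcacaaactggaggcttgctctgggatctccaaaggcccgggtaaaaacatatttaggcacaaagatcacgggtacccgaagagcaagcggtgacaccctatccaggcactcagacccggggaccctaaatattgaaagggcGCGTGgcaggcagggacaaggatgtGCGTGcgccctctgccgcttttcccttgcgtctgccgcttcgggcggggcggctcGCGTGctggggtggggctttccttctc
Cyp1a1: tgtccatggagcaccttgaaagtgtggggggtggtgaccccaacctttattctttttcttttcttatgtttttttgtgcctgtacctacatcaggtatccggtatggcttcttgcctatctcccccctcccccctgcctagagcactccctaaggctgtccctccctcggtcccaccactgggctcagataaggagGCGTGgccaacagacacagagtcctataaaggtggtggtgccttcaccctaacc
Cyp1b1: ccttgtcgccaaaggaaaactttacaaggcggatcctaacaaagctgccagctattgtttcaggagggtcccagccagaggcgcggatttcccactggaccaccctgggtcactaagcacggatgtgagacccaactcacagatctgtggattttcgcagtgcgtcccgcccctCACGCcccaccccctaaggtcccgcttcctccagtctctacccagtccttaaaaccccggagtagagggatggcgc

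The libraries held between 42972328 and 48130352 counts, so that the floor of 3 counts lay between 0.0552 and 0.0769 CPM, which are counts scaled to a fixed library size. CPM are TMM-scaled throughout. Values per library are given for pool 1 and then pool 2. Differences are log2 differences of the fitted levels with their SE, and adjusted p-values come from the quasi-likelihood test of edgeR, adjusted by Benjamini-Hochberg over the 21085 genes. A gene is called at an adjusted p under 0.01 with a mean normalized count over 100 per lane.

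Before the members, the labels were checked against markers. Itgax (CD11c), used in the sort, was between 316 and 418 CPM in MSMs and between 63.6 and 149 CPM in SSMs, and Siglec1 (CD169), also used in the sort, was between 0.795 and 5.96 CPM in MSMs and between 8.47 and 70.0 CPM in SSMs. The transcript of a marker used to sort both subsets was therefore low in MSM libraries. Type 1 dendritic cell markers were abundant there. Xcr1, a chemokine receptor of these cells, was between 630.4 and 752 CPM in MSMs and between 14.2 and 33.6 CPM in SSMs. In ndLN 7 of 8 such markers were called lower in SSMs, beside 6.06% of all genes, and in tdLN 8 of 8, beside 3.52%. SSM libraries carried markers of lymphoid and mast cells, with a summed level of 8 type 3 innate-like lymphoid markers between 1469 and 1851 CPM in ndLN and between 537 and 548 CPM in tdLN, against at most 59.7 CPM in MSMs. The part of these other cells in the differences below was not tested.

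**Figure D1:**
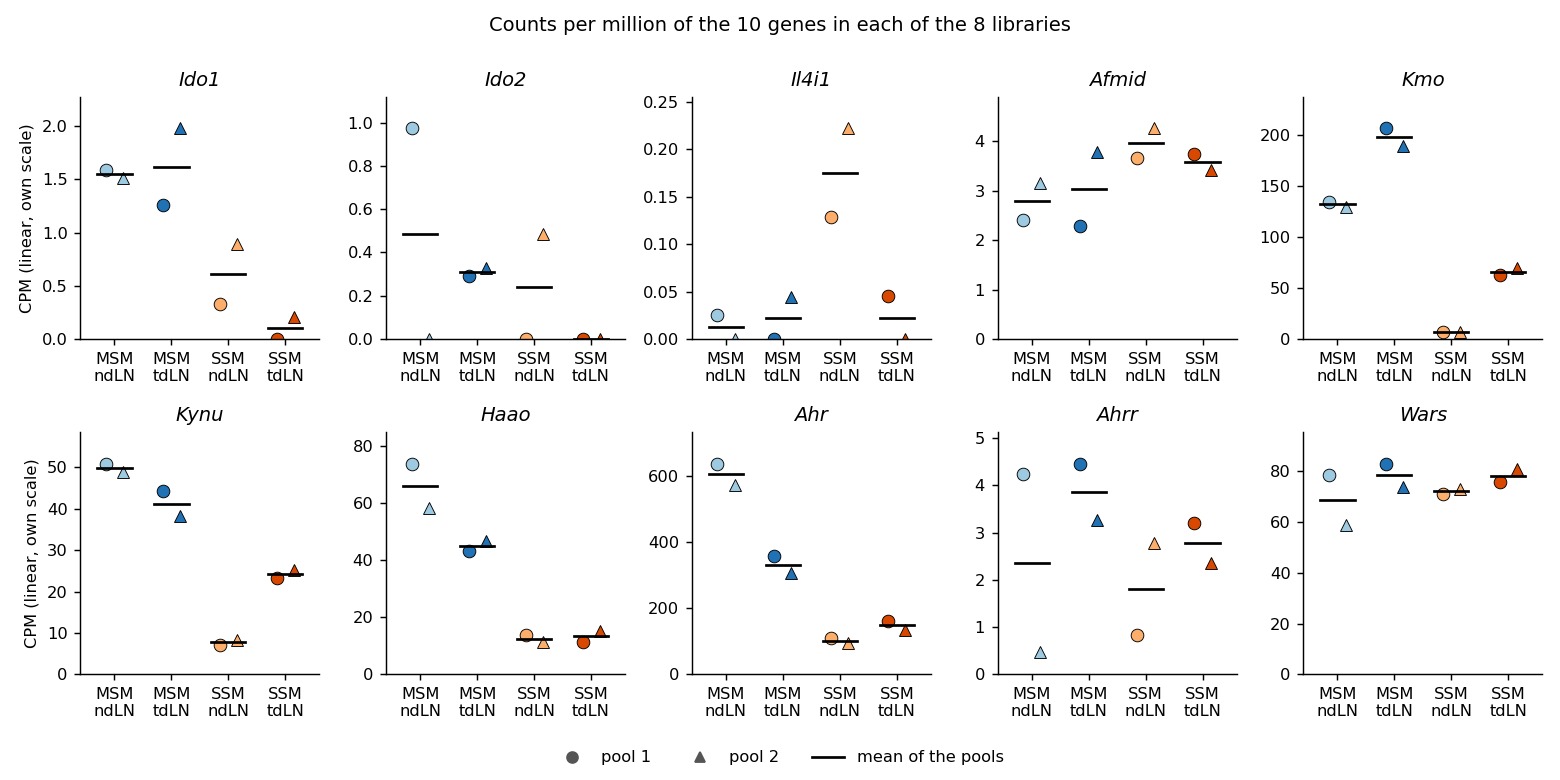
CPM of each of the 10 genes (linear axis from 0, a scale for each gene) in the 4 groups, with pool 1 as a circle, pool 2 as a triangle and the mean as a line. Kmo, Kynu, Haao and Ahr are lower in both SSM libraries than in both MSM libraries of the same node, and Kmo, Kynu and Ahr are higher in both SSM libraries from tdLN than in both from ndLN.

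Kmo encodes kynurenine 3-monooxygenase, a flavoprotein of the outer mitochondrial membrane (chr1:175620381-175662116, plus strand, GRCm38). It was at 134.5 and 129.9 CPM in MSMs from ndLN, and those from tdLN had 206.8 and 188.9 CPM. In SSMs it was at 6.75 and 6.97 CPM in ndLN and at 62.9 and 69.3 CPM in tdLN. The 4 groups did not overlap, and SSMs from tdLN remained below every MSM library. The log2 difference between SSMs and MSMs was -4.27 ± 0.17 in ndLN and -1.58 ± 0.14 in tdLN. The difference between tdLN and ndLN was 3.27 ± 0.17 in SSMs and 0.58 ± 0.14 in MSMs, and both pools gave similar values, 3.20 and 3.29 in SSMs against 0.62 and 0.54 in MSMs. The difference of these differences, on which Kmo was chosen, was 2.69 ± 0.21. Averaged over the nodes, the log2 difference between SSMs and MSMs was -2.92 ± 0.11. None of these values of Kmo carries a test.

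Kynu encodes kynureninase, which takes the product of KMO to 3-hydroxyanthranilic acid (chr2:43555329-43682715, plus strand). It was at 50.9 and 49.0 CPM in MSMs from ndLN, 44.3 and 38.2 CPM in MSMs from tdLN, 7.15 and 8.27 CPM in SSMs from ndLN, and 23.3 and 25.3 CPM in SSMs from tdLN. SSMs from ndLN were lowest, and every SSM library was below every MSM library. In ndLN, Kynu was lower in SSMs by a log2 difference of -2.70 ± 0.20 (adjusted p = 9.17e-05). In tdLN the difference was -0.76 ± 0.18 (adjusted p = 0.0247), which did not pass. Kynu rose in SSMs from tdLN against ndLN by 1.66 ± 0.20 (adjusted p = 0.00367), by 1.69 in pool 1 and 1.60 in pool 2. In MSMs the difference was -0.28 ± 0.17 (adjusted p = 0.576). The difference between these changes was 1.93 ± 0.26 (adjusted p = 0.0259). The call of Kynu in SSMs was lost, at similar sizes between 1.53 and 1.79, whichever of the 8 libraries was left out (adjusted p between 0.0113 and 0.0628) and when only the SSM libraries were fitted (adjusted p = 0.0384).

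Haao encodes the dioxygenase that makes the precursor of quinolinic acid (chr17:83831156-83847963, minus strand). It was at 73.9 and 58.3 CPM in MSMs from ndLN, and those from tdLN had 43.2 and 46.9 CPM. In SSMs it was at 13.7 and 11.3 CPM in ndLN and 11.3 and 15.3 CPM in tdLN, so that the SSM nodes overlapped. Haao was lower in SSMs in ndLN (-2.40 ± 0.23, adjusted p = 3.2e-04) and in tdLN (-1.76 ± 0.23, adjusted p = 0.00189). The second call was lost without any one of the 4 tdLN libraries (adjusted p between 0.0123 and 0.0307). Between the nodes, the difference was 0.09 ± 0.24 in SSMs, with a 95% interval from -0.48 to 0.66 (adjusted p = 0.875), and -0.55 ± 0.21 in MSMs (adjusted p = 0.362).

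The levels of these 3 successive enzymes relative to each other are given per kilobase of exon, as a description. The ratio of Kynu to Haao, which does not involve Kmo, was 0.398 and 0.557 in SSMs from ndLN and 1.56 and 1.26 in SSMs from tdLN, and in MSMs it was 0.524 and 0.639 in ndLN and 0.780 and 0.620 in tdLN. The ratios to Kmo carry the node difference on which Kmo was chosen. Kmo was at 1.23 and 1.10 times the level of Kynu in SSMs from ndLN and 3.52 and 3.57 times in SSMs from tdLN, and in MSMs this ratio was 3.44 and 3.45 in ndLN and 6.08 and 6.44 in tdLN. The ratio of Kmo to Haao was 0.489 and 0.612 in SSMs from ndLN, the lowest of all groups, and 5.50 and 4.49 in SSMs from tdLN. In MSMs the ratio to Haao was 1.80 and 2.21 in ndLN and 4.74 and 3.99 in tdLN. SSMs from tdLN thus overlapped MSMs from tdLN in this ratio, although both genes were lower in SSMs.

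The dioxygenases that open the tryptophan ring were at low level. Ido1, the interferon-inducible tryptophan dioxygenase (chr8:24584136-24597009, minus strand), was at 1.59 and 1.52 CPM in MSMs from ndLN, 1.26 and 1.98 CPM in MSMs from tdLN, 0.331 and 0.889 CPM in SSMs from ndLN, and 0 and 0.206 CPM in SSMs from tdLN. Each SSM library was below each MSM library. Averaged over the nodes, the log2 difference was -2.66 ± 0.60 (adjusted p = 0.00907), but the mean normalized count of 21.9 per lane is under the minimum for a call. Its paralog Ido2 (chr8:24531892-24576333, minus strand) had 89 counts over all libraries and was at or under 3 counts in 4 of 8. Il4i1 (chr7:44816387-44840809, plus strand) had 23 counts in all and was at or under 3 counts in 6 of 8 libraries. Its level is uncertain, because 86.3% of its exon bases lie in exons of Atf5, Nup62 or Tbc1d17 and the counting mode is not given in the sources used here. Tdo2, the liver form of the dioxygenase, was at most 0.221 CPM.

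Afmid, the formamidase that releases kynurenine (chr11:117825924-117839908, plus strand), was between 2.28 and 4.26 CPM in the 8 libraries with overlapping groups. Its mean normalized count was 75.4 per lane, and 46.6% of its exon bases are shared with exons of Gm20708 or Tk1. No comparison passed the adjusted p for Afmid, with values between 0.332 and 1.0.

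Ahr itself (chr12:35497974-35535038, minus strand) had the highest level per kilobase of the 10 genes in MSMs, 98.1 ± 7.47 CPM per kilobase (SD, n = 2) in ndLN and 53.7 ± 6.00 in tdLN, against 16.5 ± 1.71 and 24.0 ± 3.29 in SSMs. In CPM, Ahr was at 637 and 572 in MSMs from ndLN and 357 and 305 in those from tdLN, at 109 and 94.0 in SSMs from ndLN, and 162 and 134 in SSMs from tdLN. The 4 groups did not overlap, and the gap between SSMs and MSMs was narrower in tdLN. Ahr was lower in SSMs in ndLN (-2.58 ± 0.12, adjusted p = 1.96e-05) and in tdLN (-1.16 ± 0.12, adjusted p = 5.68e-04). The call in tdLN was lost without any one of the 4 tdLN libraries (adjusted p between 0.0102 and 0.0198). From ndLN to tdLN, the log2 difference was 0.54 ± 0.12 in SSMs (adjusted p = 0.0282) and -0.87 ± 0.11 in MSMs (adjusted p = 0.0316), opposite in sign in both pools and with neither past the threshold. The difference between these changes was 1.41 ± 0.16 (adjusted p = 0.0186).

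Ahrr, the repressor that AHR induces (chr13:74211118-74292331, minus strand; upstream window printed above), was at 4.23 and 0.468 CPM in MSMs from ndLN, 4.46 and 3.26 CPM in MSMs from tdLN, 0.828 and 2.79 CPM in SSMs from ndLN, and 3.21 and 2.36 CPM in SSMs from tdLN. The groups overlapped, and the MSM libraries from ndLN held both the lowest and the second highest value. Its mean normalized count of 61.0 per lane allowed no call. Of 9 AHR target genes, 7 were tested and 2 had a mean normalized count over 100 per lane. Cyp1a1, the textbook target, had counts in 1 of 8 libraries (0.533 CPM), and Cyp1b1 was between 0 and 3.21 CPM. Aldh3a1 averaged 7.55 CPM in SSMs from ndLN and 2.38 CPM in SSMs from tdLN. In MSMs it averaged 0.0752 CPM in ndLN and 0.0958 CPM in tdLN, and its mean normalized count was too low for a call. Nqo1 and Ugt1a6a averaged at most 1.98 CPM in any group. Tiparp, which modifies AHR by ADP-ribosylation and is induced by it, was between 280.0 and 453 CPM, with a difference between SSMs and MSMs of 0.34 ± 0.14 in ndLN (adjusted p = 0.141). Lpar6, a lysophosphatidic acid receptor, was at 222 and 218 CPM in MSMs from ndLN and at 60.8 and 51.7 CPM in SSMs from ndLN. It was lower in SSMs in ndLN (-1.97 ± 0.14, adjusted p = 9.54e-05) and rose in SSMs from tdLN (1.29 ± 0.14, adjusted p = 0.00268) to 138 and 136 CPM.

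Among the 7 genes of the AHR complex, 2 were called between the nodes in SSMs, 1 lower and 1 higher in tdLN, beside 3.03% of all genes called and 1.98% called higher. Arnt2, a partner that can take the place of ARNT, was at 66.1 and 85.1 CPM in SSMs from ndLN and at 17.5 and 12.3 CPM in SSMs from tdLN, a fall of -2.34 ± 0.25 (adjusted p = 0.00268). In MSMs Arnt2 was at most 1.10 CPM. In tdLN it was higher in SSMs by a log2 difference of at least 7.75 against the floor of 3 counts per library. Between SSMs and MSMs, 1 of the 7 genes was called in each node, higher in SSMs, beside 12.1% of all genes in ndLN and 8.69% in tdLN. The chaperone Hsp90aa1, which holds AHR in the cytosol, rose in SSMs from tdLN (1.28 ± 0.18, adjusted p = 0.00595) from 257 and 202 to 509 and 608 CPM. In MSMs Hsp90aa1 averaged 311 CPM in ndLN and 504 CPM in tdLN, a difference that edgeR did not call. Arnt, the main partner, was between 68.5 and 119 CPM with no call. The median log2 difference of the 7 genes was 0.20 between the nodes in SSMs, beside 0.05 over the 9988 genes with a mean over 100.

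**Figure D2:**
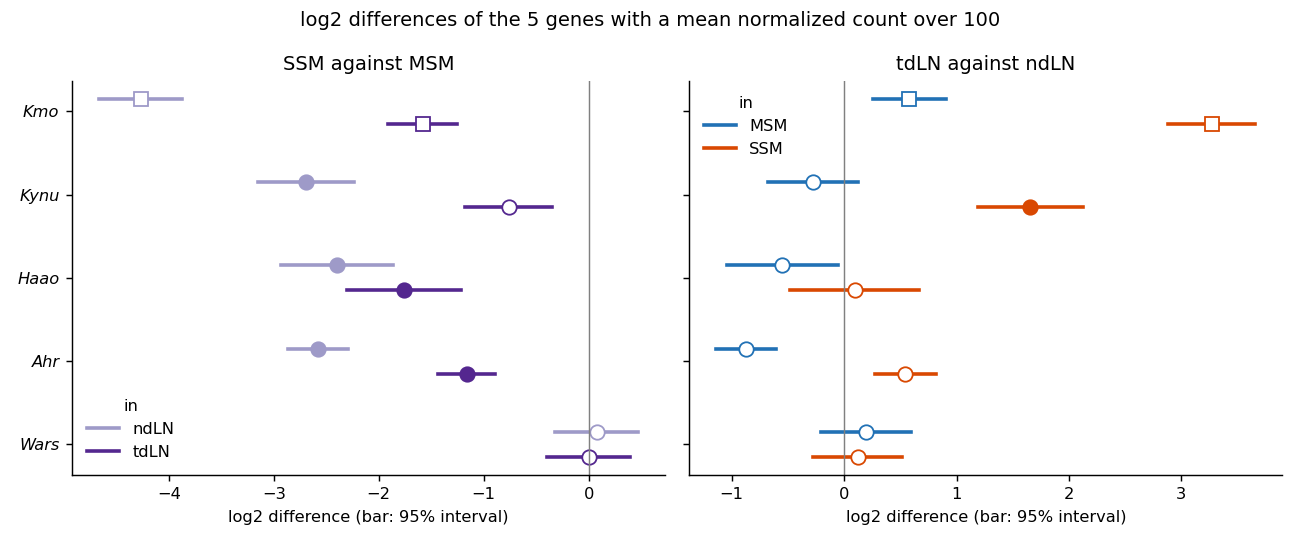
log2 differences between SSMs and MSMs (left) and between tdLN and ndLN (right) for the 5 genes with a mean normalized count over 100, with bars for the 95% interval. Filled circles are called, open circles are not, and open squares mark Kmo, which was not tested because it was chosen on these values. On the right, the values of Kynu and Ahr are below 0 in MSMs and above 0 in SSMs, although the interval of Kynu in MSMs spans 0. Wars is near 0 throughout.

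Wars, the tryptophan tRNA synthetase (chr12:108860030-108894174, minus strand), was at 78.6 and 58.9 CPM in MSMs from ndLN, 83.0 and 73.8 CPM in MSMs from tdLN, 71.1 and 73.0 CPM in SSMs from ndLN, and 75.6 and 80.7 CPM in SSMs from tdLN. The groups overlapped. Averaged over the nodes, SSMs and MSMs differed by 0.04, with a 95% interval from -0.24 to 0.32 (adjusted p = 0.898). Averaged over the subsets, the nodes differed by 0.16, with an interval from -0.12 to 0.44 (adjusted p = 0.548). Of the 19 other cytosolic tRNA synthetases tested, 5 were called between SSMs and MSMs in ndLN, 4 of them lower in SSMs, beside 12.1% of all genes called and 6.06% called lower. Eprs, for glutamate and proline, was higher in SSMs (1.60 ± 0.18, adjusted p = 6.47e-04), and Nars (-1.07 ± 0.15, adjusted p = 0.00206), Farsb (-0.998 ± 0.16, adjusted p = 0.00351), Mars (-0.99 ± 0.20, adjusted p = 0.00951) and Gars (-0.90 ± 0.17, adjusted p = 0.0069) were lower. In tdLN 0 of the 19 were called by edgeR, beside 8.69% of all genes. There 10 were at an unadjusted p under 0.05 and DESeq2 called 4, beside 5864 and 3026 of the 21085 genes. Eprs alone was called between the nodes in SSMs, beside 3.03% of all genes. It fell in SSMs from tdLN (-1.64 ± 0.18, adjusted p = 0.00263). The median of the 19 was -0.35 in ndLN, beside -0.06 over the 9988 genes.

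Of the 9 members other than Kmo, 3 (Kynu, Haao and Ahr) were called between SSMs and MSMs in ndLN, all lower in SSMs, beside 12.1% of all genes called and 6.06% called lower. In tdLN 2 (Haao and Ahr) were called lower, beside 8.69% of all genes called and 3.52% called lower. Averaged over the nodes, the same 3 were lower in SSMs, beside 16.0% called and 8.0% called lower. Between the nodes in SSMs, 1 (Kynu) was called, higher in tdLN, beside 3.03% called and 1.98% called higher. In MSMs 0 of 9 were called by edgeR, beside 0.0237% of all genes. There 2 (Haao and Ahr) were at an unadjusted p under 0.05 and DESeq2 called 1 (Ahr), beside 2515 and 503 of 21085 genes. For the difference of the node changes, 0 of 9 were called by edgeR, beside 0.0379%. At an unadjusted p under 0.05 were 2 (Kynu and Ahr), and DESeq2 called both, beside 2598 and 706 of 21085 genes. Averaged over the subsets, 0 of 9 were called between the nodes by edgeR, beside 1.97%. Only 1 (Kynu) was at an unadjusted p under 0.05, also called by DESeq2, beside 4499 and 1855 of 21085 genes. The 2 node comparisons share no libraries, whereas the comparison of subsets in a node shares its libraries with the node comparisons.

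Per kilobase of exon, the order of the members also differed between the groups. In SSMs from ndLN, Wars was highest (20.9 ± 0.395 CPM per kilobase, SD, n = 2), then Ahr (16.5 ± 1.71), Haao (2.67 ± 0.36), Kmo (1.45 ± 0.0335) and Kynu (1.25 ± 0.128), with Afmid next at 1.12 ± 0.121, within the spread of Kynu. In SSMs from tdLN, Ahr (24.0 ± 3.29) and Wars (22.7 ± 1.03) overlapped, and Kmo (14.0 ± 0.953) came next, above Kynu (3.95 ± 0.232) and Haao (2.85 ± 0.596). In MSMs Kmo came after Ahr in both nodes, at 28.0 ± 0.694 in ndLN and 41.9 ± 2.68 in tdLN, with Wars behind it at 19.9 ± 4.03 and 22.7 ± 1.87. Ido1, Ido2, Il4i1, Afmid and Ahrr were each at or under 1.12 CPM per kilobase on average in all 4 groups.

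The other genes of kynurenine and NAD metabolism gave 12 tested of 14 listed, and 3 called between SSMs and MSMs in ndLN, beside 12.1% of all genes. Got2, a mitochondrial aminotransferase that can make kynurenic acid, was between 175 and 217 CPM in MSMs and between 54.5 and 69.5 CPM in SSMs, lower in ndLN (-1.78 ± 0.16, adjusted p = 2.62e-04) and in tdLN (-1.71 ± 0.16, adjusted p = 4.67e-04). Nampt, the rate-limiting enzyme of NAD salvage, was lower in SSMs in ndLN (-1.25 ± 0.17, adjusted p = 0.00139) and rose in SSMs from tdLN (1.17 ± 0.17, adjusted p = 0.00661) from 107 and 77.4 to 214 and 197 CPM, beside 181 to 223 CPM in MSMs. Nmrk1, the nicotinamide riboside kinase, went the other way, higher in SSMs in ndLN (2.18 ± 0.29, adjusted p = 0.0014) and falling in SSMs from tdLN (-1.81 ± 0.28, adjusted p = 0.00893). Qprt, which takes quinolinic acid towards NAD, was between 0.440 and 5.36 CPM with no call. The median over the 8 genes of this list with a mean over 100 was -0.51 in ndLN and 0.18 between the nodes in SSMs, beside -0.06 and 0.05 over all 9988 such genes.

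Of 6 carriers of tryptophan, 1 was called between SSMs and MSMs in each node, beside 12.1% of all genes in ndLN and 8.69% in tdLN. Slc16a10, a carrier of aromatic amino acids, was between 11.8 and 13.0 CPM in SSMs and between 1.28 and 2.16 CPM in MSMs (3.22 ± 0.32 in ndLN, adjusted p = 4.03e-04). The glutamine and neutral amino acid carrier Slc1a5 fell in SSMs from tdLN (-1.03 ± 0.16, adjusted p = 0.00947). Slc7a5, a main importer of tryptophan and kynurenine, was between 34.4 and 66.5 CPM with no call. In the serotonin branch, which uses tryptophan for serotonin, Tph1 was at 32.8 and 32.1 CPM in SSMs from ndLN and 7.17 and 16.6 CPM in SSMs from tdLN, with 0 counts in every MSM library, so that it was higher in SSMs by a log2 difference of at least 8.82 in ndLN and 7.42 in tdLN against the floor of 3 counts per library. Tph1 is also a gene of mast cells. A list of 8 mast cell and basophil markers summed to between 1752 and 2679 CPM in SSMs from ndLN and between 249.6 and 573 CPM in SSMs from tdLN. In MSMs the sum was between 270 and 619 CPM, nearly all from Kit (on average 610 CPM in ndLN and 322 CPM in tdLN). The basophil gene Mcpt8 went the other way in SSMs, from 2.76 CPM on average in ndLN to 22.1 CPM in tdLN. The part of mast cells in the level of Tph1 was not tested.

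**Figure D3:**
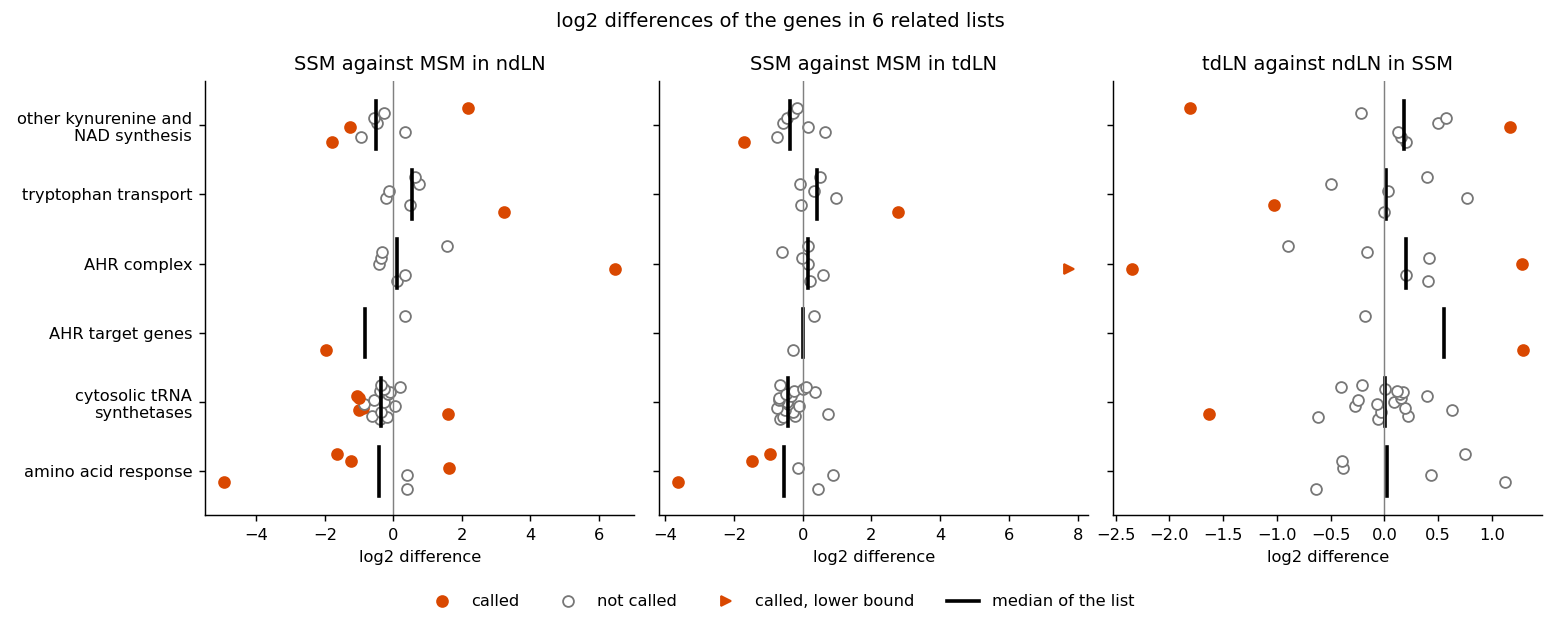
log2 differences of the genes with a mean normalized count over 100 in 6 related lists (rows) for 3 comparisons (panels), with called genes filled, genes at a bound against the floor as triangles and the list median as a line. List medians lie between -0.82 (AHR target genes in ndLN, over 2 genes) and 0.56 (tryptophan transport in ndLN). Single genes lie farther out, such as Slc16a10 at 3.22 in ndLN and Arnt2 at a lower bound of 7.75 in tdLN.

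Of 8 genes of the amino acid response, which reports uncharged tRNA through GCN2, 3 were called lower in SSMs in both nodes, beside 6.06% of all genes called lower in ndLN and 3.52% in tdLN, and Ddit4, a stress-induced inhibitor of mTORC1, was called higher in ndLN (1.63 ± 0.27, adjusted p = 0.00437). The 3 lower genes were Eif2ak4, which encodes GCN2 (-1.23 ± 0.20 in ndLN, adjusted p = 0.00354), the glutathione-degrading Chac1 (-4.93 ± 0.39, adjusted p = 1.31e-04) and Sesn2, a stress-induced brake of mTORC1 (-1.65 ± 0.14, adjusted p = 2.19e-04). Atf4, the transcription factor of this response, was between 168 and 387 CPM with no call. None of the 8 was called between the nodes in SSMs by edgeR, beside 3.03% of all genes. There 2 were at an unadjusted p under 0.05 and DESeq2 called 2, beside 4852 and 1973 of the 21085 genes. Interferon gamma induces Ido1 and Wars. Of 14 genes of its response, 2 were called between the nodes in SSMs by edgeR, beside 3.03% of all genes. In the same comparison 8 were at an unadjusted p under 0.05 and DESeq2 called 5, beside 4852 and 1973 of the 21085 genes. Of the 2 called by edgeR, Ciita, the master regulator of MHC class II, rose (2.42 ± 0.18, adjusted p = 0.0011). Socs1, a feedback inhibitor, fell (-1.63 ± 0.23, adjusted p = 0.00698). Gpr35, a receptor for kynurenic acid, was at 204 and 128 CPM in SSMs from ndLN and 437 and 334 CPM in SSMs from tdLN (1.23 ± 0.20, adjusted p = 0.0111), just short of a call.

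Markers of macrophages and of other cells also differed between the SSM nodes, where Kmo and Kynu were higher in tdLN. In their sums, some of these lists were higher in tdLN, some lower, and some similar. Of 9 sinus macrophage markers, 5 were called higher in SSMs from tdLN, beside 1.98% of all genes. Among them were Siglec1 (2.47 ± 0.26, adjusted p = 0.00259), the lysosomal Cd68 (1.69 ± 0.15, adjusted p = 0.00192) and the phagocytic receptor Mertk (5.25 ± 0.50, adjusted p = 0.00193). The summed level of the 9 was 9209 and 5986 CPM in SSMs from ndLN and 22450 and 15360 CPM in SSMs from tdLN, and between 4982 and 5716 CPM in MSMs. Most of each sum was Lyz2, on average 6491 CPM in SSMs from ndLN and 16120 CPM in SSMs from tdLN. In MSMs Lyz2 averaged 4316 CPM in ndLN and 4069 CPM in tdLN. Marco was lower on average in SSMs from tdLN (9.59 CPM) than from ndLN (14.4 CPM). Type 1 dendritic cell markers, which were high in MSMs like Kmo, Kynu, Haao and Ahr, summed to 1066 and 1052 CPM in SSMs from ndLN and 906 and 1059 CPM in SSMs from tdLN. Most of each sum was Irf8, on average 810 CPM in ndLN and 772 CPM in tdLN. Xcr1, Clec9a, Itgae, Cadm1 and Irf8 averaged lower in SSMs from tdLN, and Batf3, Tlr3 and Wdfy4 higher. Of the 8 markers, 0 were called between the SSM nodes by edgeR, beside 3.03% of all genes. There 5 were at an unadjusted p under 0.05 and DESeq2 called 4, beside 4852 and 1973 of the 21085 genes. The summed level of 8 type 3 innate-like lymphoid markers fell in the SSM libraries as given above, with 5 of 8 called lower, beside 3.03% of all genes called. T cell markers summed to 1949 and 2161 CPM in ndLN and 829 and 935 CPM in tdLN. NK cell markers overlapped, at 1770 and 1327 CPM in SSMs from ndLN and 1058 and 1562 CPM in SSMs from tdLN. None of the 6 was called, beside 3.03% of all genes. Of 6 neutrophil markers, 1 was called, beside 3.03% of all genes. It was the receptor Csf3r (1.90 ± 0.26, adjusted p = 0.00564). The 6 markers summed to 61.5 and 135 CPM in SSMs from ndLN and 445 and 252 CPM in SSMs from tdLN, against at most 29.0 CPM in MSMs. The median difference of the 3 neutrophil markers with a mean over 100 was 1.99, beside 0.05 over the 9988 genes, and Ly6g was at 0 in 7 of 8 libraries. Markers of mature dendritic cells summed to 3234 and 4564 CPM in SSMs from ndLN and 3058 and 3658 CPM in SSMs from tdLN. Of these 8 markers, 1 was called, higher in tdLN, beside 1.98% of all genes called higher. From ndLN to tdLN, the average of Ccr7 in SSMs went from 1555 to 750 CPM and that of Marcksl1 from 291 to 581 CPM. Ccl22, Relb and Cacnb3 also averaged lower in tdLN, and Fscn1 and Cd83 higher. None of these lists was near 0, and their part in the node difference of Kmo and Kynu was not tested.

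**Figure D4:**
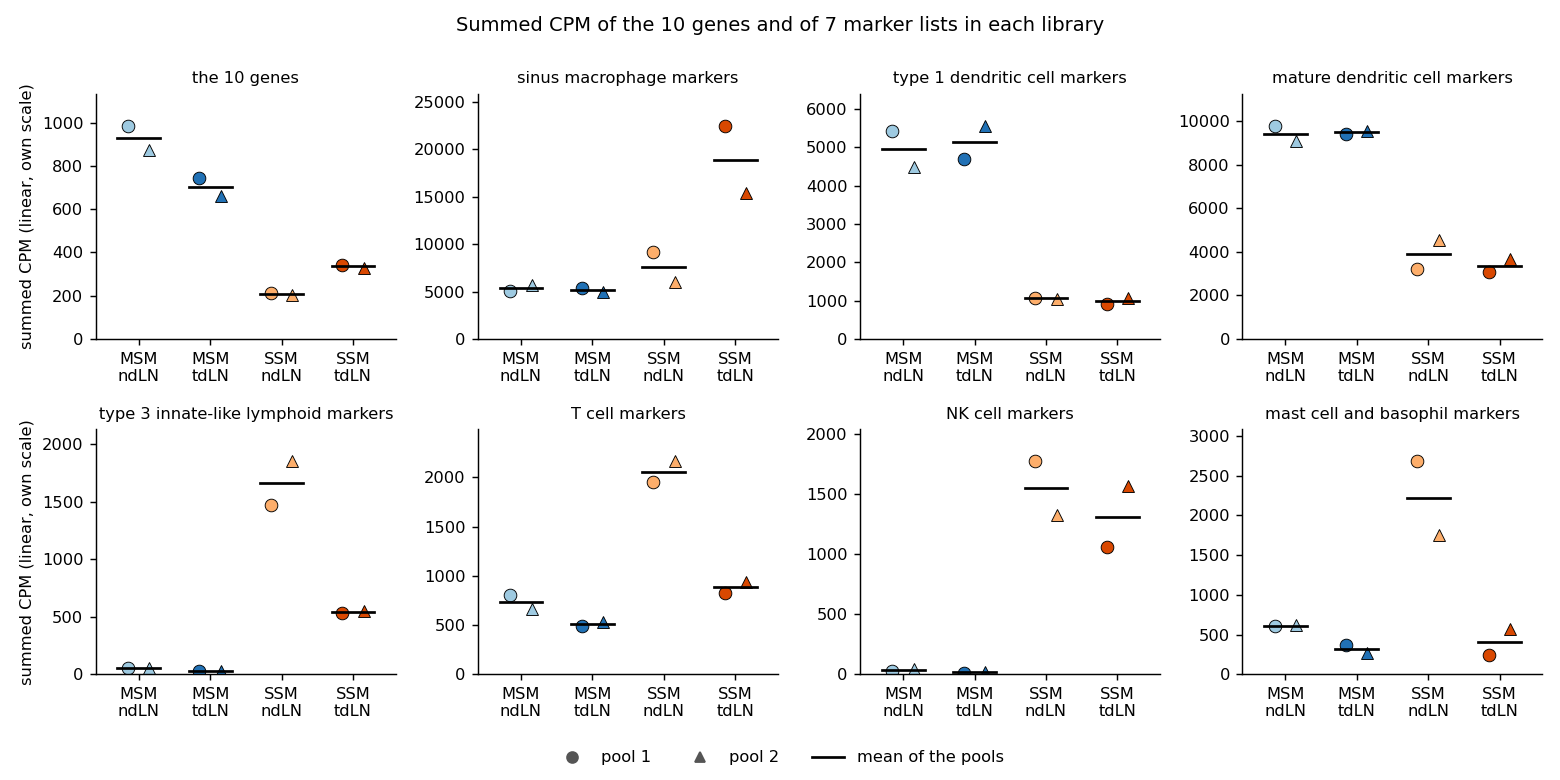
Summed CPM (linear axis from 0, a scale for each panel) of the 10 genes and of 7 marker lists in each library, with pool 1 as a circle, pool 2 as a triangle and the mean as a line. Macrophage markers are highest in SSMs from tdLN (15360 and 22450). Sums of innate-like lymphoid, T cell, and mast cell and basophil markers are lower there than in SSMs from ndLN, whereas NK cell markers overlap.

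The genes whose log2 CPM followed each member most closely over the 8 libraries, among 9988 genes with a mean over 100, were listed as a description. For Kmo these were Pmaip1, a BH3-only protein of apoptosis (Pearson r = 0.999), Wdsub1 (0.998) and Mapk13, a p38 kinase (0.995). Pmaip1 was at 253 and 247 CPM in SSMs from ndLN and 691 and 686 CPM in SSMs from tdLN, and between 910 and 1147 CPM in MSMs, so that it had the order of the 4 groups seen for Kmo. For Kynu they were Gsn, the actin-severing gelsolin (0.991), Pid1 (0.991) and Tnip3 (0.990). For Haao they were Tmem229b (0.998), Gm36723 (0.995) and Nsmaf (0.994), and for Ahr Snx20 (0.996), Stk38l (0.994) and Eya3 (0.993). The points share the 4 groups of 2 libraries, so these values are a description over 8 libraries with no test. For the members at low level or without a called difference, the highest r was 0.990 for Ido1 with Cep89, 0.977 for Ido2 with Mdh2, 0.968 for Il4i1 with Stxbp5, 0.930 for Afmid with Zfp738, 0.935 for Ahrr with Fam149b and 0.935 for Wars, also with Fam149b.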

How the data were processed

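Libraries from sorted SSMs and MSMs were made with the low-input SMART-Seq v4 kit, and sequenced on 2 lanes. The authors deposited raw counts per gene for 16 samples, which are 8 libraries on 2 lanes each. The submitters' processing notes name bcl2fastq 2.20.0.422, Trimmomatic 0.36, STAR 2.5.3a and GRCm38. The counting mode and any strand setting are not given in the sources used here. Every count column was mapped to a sample. The lanes of each library agreed within sampling noise (chi-square per degree of freedom between 0.955 and 1.02, against 29.3 to 53.1 between pools of a group) and were summed, which left n = 2 libraries per group.

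The 21085 genes tested had 10 or more counts in all and were detected in 2 or more samples. Counts were TMM-normalized in edgeR 4.0.16 (R 4.3.3), and all 8 libraries were fitted with group and pool by the quasi-likelihood test, adjusted by Benjamini-Hochberg. A call required an adjusted p under 0.01 with a mean over 100 normalized counts in a lane. SE is the log2 difference divided by the square root of F. The procedure was tested on simulated data. Pool was a term, as in the study's methods, which state that every pool of mice was sorted into all 4 groups. The study counts 4 pools as biological replicates, whereas the labels distinguish only 2 per group and the lanes make up the rest. The pool numbers of the labels were used here, so n, the block and the SE rest on 2 pools per group. The label of an SSM library from tdLN carries no pool number. That library was taken as pool 1, because the other SSM library from tdLN is numbered 2. The changes per pool in SSMs and the block rest on this assignment. Deviations of same-numbered libraries from the group means correlated between -0.145 and 0.163 over 10000 genes. Alternatives were a fit without this block, DESeq2 1.42.0, its size factors, other filters and call rules, only the groups compared, and each library left out.

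Symbols and positions came from GENCODE M21 (symbols for 55154 IDs), and shared exon sequence was measured in windows of 50 bases. Other steps used Python 3.11, pandas 2.3.3, numpy 2.4.6, scipy 1.17.1 and matplotlib 3.10.9. The members, the 20 other gene lists and the markers were chosen with earlier results of these data known. All 10 members are named whatever their values, with the 3 genes most like each. From the other lists, up to 4 called genes per comparison were named by size. Members and list genes named without a call (Tdo2, Afmid, Qprt, Slc7a5, Arnt, Cyp1a1, Cyp1b1, Aldh3a1, Nqo1, Ugt1a6a, Tiparp, Atf4, Gpr35) and Gars were named for their role, after their values were seen. Dendritic cell markers other than Xcr1 were named to describe their sums, also after their values were seen. Intervals at the floor of 3 counts cover counting error only.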

Additional observations from a re-analysis of the deposited data

Results flagged for a closer look

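The change from ndLN to tdLN in SSMs was set against that in MSMs for each gene. For Kmo, the difference between the change in SSMs and the change in MSMs was 2.69 on the log2 scale, and Kmo had been chosen on this difference, which carries no test. For Kynu it was 1.93 (edgeR's quasi-likelihood test, adjusted p = 0.0259), with changes of 1.69 and 1.60 in the SSM pools and of -0.20 and -0.36 in the MSM pools. For Ahr it was 1.41 (adjusted p = 0.0186), with changes of 0.58 and 0.51 in the SSM pools and of -0.83 and -0.91 in the MSM pools. Kynu and Ahr were picked out because these values had opposite signs in the subsets in both pools, but neither difference passed the adjusted p of 0.01, and the change of Kynu in MSMs (-0.28, 95% interval from -0.68 to 0.13) was not distinguishable from 0. Macrophage, neutrophil, type 3 innate-like lymphoid, T cell, and mast cell and basophil markers also changed between the SSM libraries, whereas NK cell markers overlapped. The part of these cells in the differences was not tested.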

How the results depend on the processing

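Leaving pool out as a replicate block changed no call of a member: 3 and 2 of the 9 members other than Kmo were called between SSMs and MSMs in ndLN and tdLN, 1 between the nodes in SSMs, and 0 in MSMs. Between the nodes in SSMs, 2 were called by DESeq2 or at an adjusted p under 0.05, 0 when only the groups compared were fitted (which also called 0 of all 21085 genes), and 0 in each fit without 1 library (lowest 0, highest 0). In tdLN, SSMs against MSMs gave 3 calls by DESeq2 and 3 at an adjusted p under 0.05. The calls of Haao and Ahr there were lost without any one of the tdLN libraries. DESeq2 and the 0.05 threshold each gave 1 call between the nodes in MSMs, 2 for the difference of the changes, and 1 averaged over the subsets. Over all 21085 genes, DESeq2 called 1973 between the nodes in SSMs and 3026 between SSMs and MSMs in tdLN. It called 503 between the nodes in MSMs, 706 for the difference of the changes and 1855 averaged over the subsets. The log2 difference of Haao between the nodes in SSMs ranged from -0.22 to 0.36 without 1 library, and that of Wars averaged over the nodes from -0.062 to 0.14. Fits without 1 library leave fewer degrees of freedom and assume that the lone sample varies like the other groups. All 8 fits without 1 library kept the calls of Kynu, Haao and Ahr in ndLN. For Kmo, the log2 difference of SSMs from tdLN against ndLN was between 3.17 and 3.35 in the alternatives. These fits reuse the libraries on which Kmo was chosen, so the range is a description and no separate support. Depth limits Ido1, Ido2, Il4i1, Afmid and Ahrr, whose mean normalized counts were under 100 per lane.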
